A study of Mus musculus with 6 samples.

Results

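The D and E cyclins and the kinases they activate drive cells out of the G1 phase and into DNA synthesis. Their 10 genes were chosen by name, from 50686 gene rows counted per sample, and are Ccnd1, Ccnd2, Ccnd3, Ccne1, Ccne2, Cdk2, Cdk4, Cdk6, Cdc25a and Rb1. All 10 were found in the count files under their Ensembl identifiers, and all 10 passed the filter on low counts.

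The cells were mouse iPSCs, reprogrammed from gingival fibroblasts, that were grown as embryoid bodies with retinoic acid and then attached to dishes. In the ICF group, 3 samples received intermittent compressive force of 1.5 g per square centimetre at 0.23 Hz in serum-free medium. In the control group, 3 samples were left unloaded in the same medium, and mRNA was sequenced from all 6 at 24 h. The labels number the samples of each group as donors 1 to 3, here called replicates, and the methods speak of independent experiments. No transgene or deletion distinguishes the groups, and the sources used here do not say how many iPSC clones were used.

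Gene counts summed to 28711166 to 34194413 in each library. ICF replicate 3 had coarser counts than the rest, with 89.0% of its nonzero values divisible by 4 and 20.3% to 21.5% elsewhere. It also had a count for fewer genes, 20802 against 24340 to 24889 in the other libraries, so its sum may not reflect equal depth. The reason was not tested. Levels are given as CPM, read counts made comparable across libraries by TMM scaling. Pluripotency markers were abundant in every library, with Pou5f1 at 841 ± 57.2 CPM (SD, n = 3) in controls and 817 ± 70.4 (SD, n = 3) under ICF. The mesenchymal markers were led by Pdgfra, at 178 ± 6.45 CPM in controls and 182 ± 0.056 under ICF (SD, n = 3 each), and by Vim, at 163 ± 15.8 and 180 ± 6.82 CPM. The other mesenchymal markers listed were much lower, with means from 2.17 (S100a4) to 15.3 CPM (Col1a1) in controls.

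In most cells, growth signals raise the D cyclins, which bind Cdk4 or Cdk6. These complexes phosphorylate the retinoblastoma protein, encoded by Rb1, and so release E2F transcription factors. E2F then raises Ccne1, Ccne2 and Cdc25a, the phosphatase Cdc25a removes inhibitory phosphates from Cdk2, and cyclin E with Cdk2 completes the step into S phase. Pluripotent mouse cells are known for a short G1 phase, with cyclin E and Cdk2 active through much of the cycle.

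The D cyclins moved apart under ICF. Ccnd1 rose by 25.9%, Ccnd2 fell by 32.7%, and the summed level of the 3 D cyclins differed little between the groups. Of the 10 members, Ccnd1 alone was called higher and Ccnd2 alone lower at an adjusted p under 0.05 in edgeR's quasi-likelihood test, where 3.47% of the 16729 genes tested were called higher, 4.38% lower and 7.85% either way. The other 8 members did not pass. With the donor number as a block, the call was made for 5 members upward and for 2 downward, against 14.6% and 15.3% of all genes in that test (29.9% either way). DESeq2 without a block called Ccnd1, Cdk6 and Cdc25a higher and Ccnd2 lower, against 6.38% and 7.5% of the genes to which it gave an adjusted p.

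The D cyclins share a short motif near the start of the protein, LxCxE, through which they bind the retinoblastoma protein. The first 60 coding bases of each are shown because the transcripts of this family were the ones that changed in opposite directions, with the 15 bases that encode the motif in capitals. The stretches lie in coding exons at chr7:144939634-144939693 on the reverse strand for Ccnd1, chr6:127150714-127150773 on the reverse strand for Ccnd2 and chr17:47593655-47593714 on the forward strand for Ccnd3 (GRCm38).
Ccnd1: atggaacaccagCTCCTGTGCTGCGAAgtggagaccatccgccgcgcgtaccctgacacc
Ccnd2: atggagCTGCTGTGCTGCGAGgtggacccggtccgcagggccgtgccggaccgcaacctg
Ccnd3: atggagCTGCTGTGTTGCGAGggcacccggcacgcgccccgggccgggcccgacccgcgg
The motif begins at coding base 13 in Ccnd1 and at base 7 in Ccnd2 and Ccnd3. Compared base by base without gaps, 31 of the 60 bases were identical between Ccnd2 and Ccnd3, 23 between Ccnd1 and Ccnd2 and 20 between Ccnd1 and Ccnd3. The later motif start in Ccnd1 puts its 2 comparisons out of register, so these counts do not rank how alike the genes are.

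Ccnd1 encodes cyclin D1, the D cyclin most closely tied to growth factor signaling, and its gene spans chr7:144929931-144939925. Its level was 106, 112 and 99.7 CPM in control replicates 1, 2 and 3, and 136, 130 and 134 CPM in ICF replicates 1, 2 and 3. The ICF samples lay close together, and the lowest of them was above the highest control. The means were 106 ± 6.13 CPM (SD, n = 3) in controls and 133 ± 2.91 (SD, n = 3) under ICF, a rise of 25.9% (log2 fold change 0.33, SE 0.052, adjusted p = 0.0163 in the edgeR test). Within the same-numbered samples, the log2 difference was 0.36, 0.22 and 0.43. The call was lost without control replicate 1 (adjusted p = 0.0803, edgeR), control replicate 2 (0.0525) or ICF replicate 1 (0.0741), although the log2 fold change stayed between 0.29 and 0.37 over the 6 tests that left out a sample. On the opposite strand, Ccnd1 overlaps LTO1, with which it shares 26.1% of the 75-base stretches of its longest transcript. The library kit keeps strand but the counting setting was not given in the sources used here, so reads from this overlap may have been left out or assigned to either gene. LTO1 itself had a log2 fold change of 0.12 (adjusted p = 0.423, edgeR).

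Ccnd2 encodes cyclin D2, and its gene spans chr6:127125162-127152193 on the reverse strand. Control replicates 1, 2 and 3 had 74.5, 78.9 and 63.2 CPM, and ICF replicates 1, 2 and 3 had 48.6, 48.1 and 49.2 CPM. The ICF samples were nearly equal and all lay below the lowest control. From 72.2 ± 8.06 CPM (SD, n = 3) in the control to 48.6 ± 0.534 (SD, n = 3) under ICF, the level fell by 32.7% (log2 fold change -0.57, SE 0.096, adjusted p = 0.00643 in the edgeR test). The log2 difference was -0.62, -0.71 and -0.36 in replicates 1, 2 and 3. The fall passed the threshold in each of the 6 tests that left out a sample, with adjusted p-values from 0.00134 to 0.045 (edgeR). This was the largest change of the 10 members in either direction.

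Ccnd3 encodes cyclin D3, which acts in the same complexes, and spans chr17:47505051-47599691. Its level was 248.7, 247 and 230 CPM in control replicates 1, 2 and 3 and 218, 219 and 217 CPM in ICF replicates 1, 2 and 3. The groups did not overlap, and the ICF values lay close together, unlike those of Ccne2, Cdc25a and Rb1 below. The mean was 242 ± 10.3 CPM (SD, n = 3) in controls and 218 ± 1.24 (SD, n = 3) under ICF. Its log2 fold change of -0.15 ± 0.036 (SE) did not pass the threshold (adjusted p = 0.134, edgeR), but did with the donor number as a block (adjusted p = 0.0191).

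**Figure D1:**
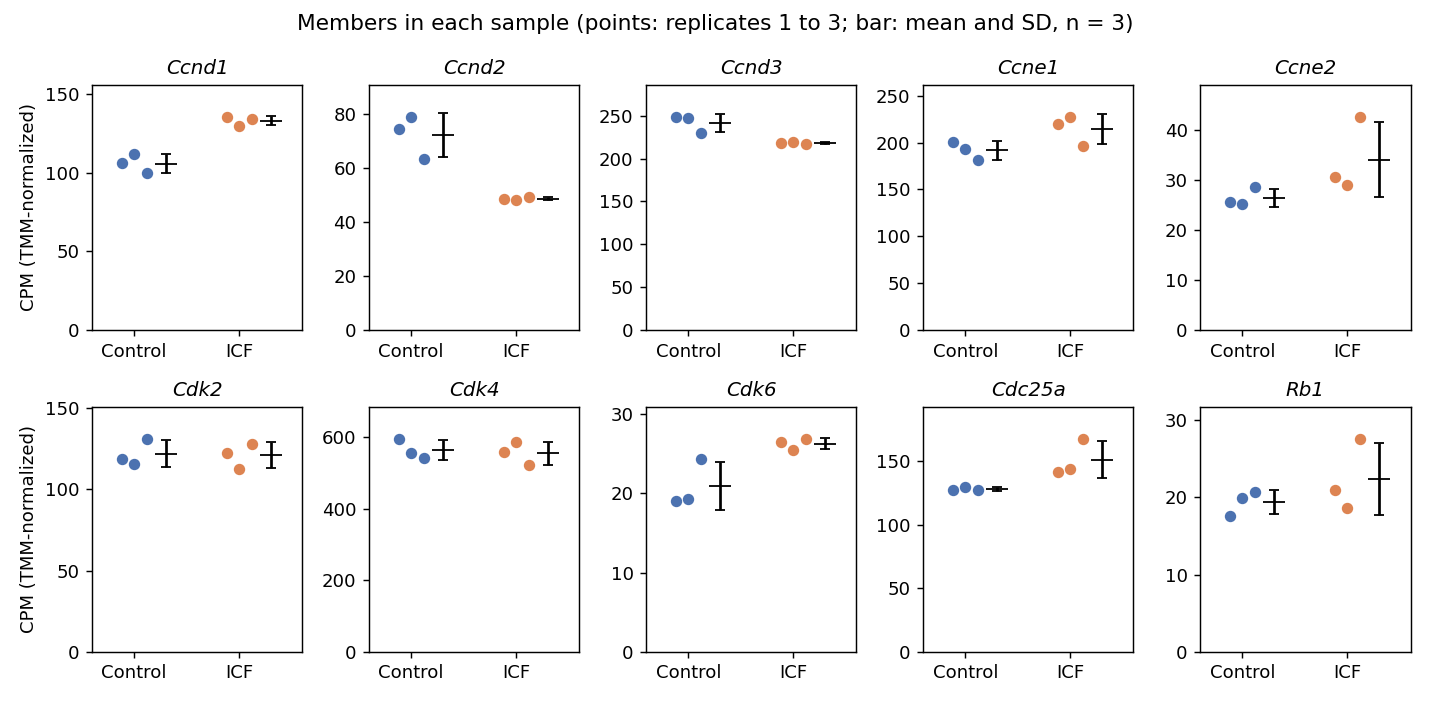
Level of each of the 10 genes in TMM-normalized CPM (y axis, from 0) in the 3 control and the 3 ICF samples. Points are replicates 1 to 3 from left to right, and the black mark gives the mean and SD of each group. Ccnd1 at 130 to 136 CPM under ICF lies above all controls, Ccnd2 at 48.1 to 49.2 CPM below them, and Cdk2 and Cdk4 overlap.

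The levels of different genes can be compared only per length, so CPM was divided by the kilobases of each gene's merged exons. The 3 D cyclins together stood at 57.7 ± 3.22 CPM per kb (SD, n = 3) in controls and 58.3 ± 0.576 (SD, n = 3) under ICF, and these sums overlapped (exact two-sided permutation test, p = 0.9). The makeup of this sum differed. Ccnd1 made up 38.3%, 39.4% and 39.1% of it in control replicates 1, 2 and 3, and 49.0%, 47.9% and 48.8% in the ICF replicates. Ccnd2 made up 13.5%, 13.9% and 12.4% in the controls and 8.79%, 8.86% and 8.94% under ICF. Thus the share of Ccnd1 was 9.61 percentage points higher under ICF and that of Ccnd2 was lower (difference of -4.41 points), and for both the groups did not overlap. Ccnd3 held 47.8 ± 0.974% (SD, n = 3) in controls and 42.6 ± 0.587% (SD, n = 3) under ICF, so Ccnd3 was the most abundant D cyclin in each control and Ccnd1 in each ICF sample. That order depends on the length used. With the length of the longest transcript, Ccnd3 led in both groups, at 61.3% and 56.6%, and the share of Ccnd1 was 27.6% in controls and 35.7% under ICF. Over the 4 shares tested (Ccnd1 and Ccnd2 within the D cyclins, Ccne1 within the E cyclins, and Cdk4 within Cdk4 and Cdk6), those of Ccnd1 and Ccnd2 each gave p = 0.1 in the exact two-sided permutation test, which with groups of 3 cannot go lower, and 0.2 after adjustment.

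**Figure D2:**
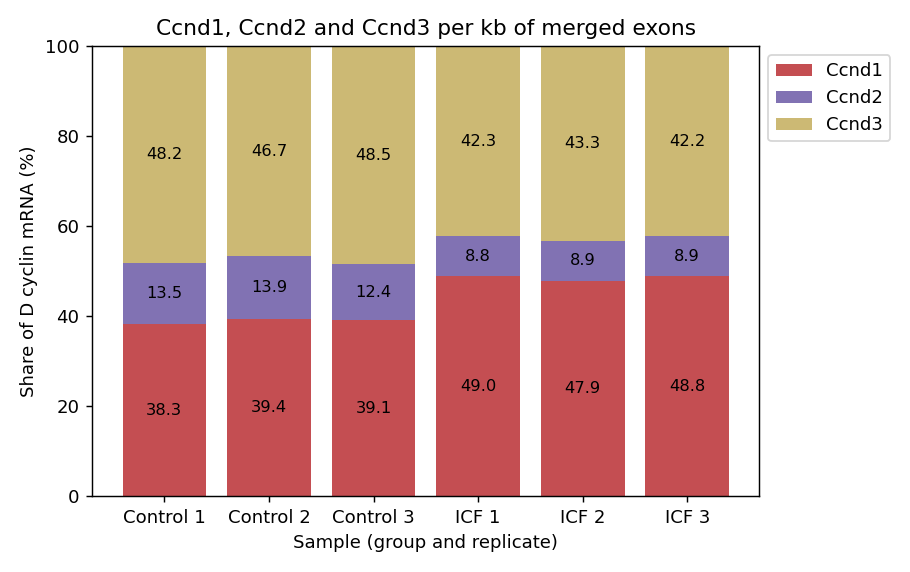
Share of Ccnd1, Ccnd2 and Ccnd3 (stacked bars, in percent) in the sum of the 3 D cyclins per kb of merged exons, for each control and ICF replicate. The Ccnd1 part is 38.3% to 39.4% in the controls and 47.9% to 49.0% under ICF, while the Ccnd2 part is 12.4% to 13.9% and 8.79% to 8.94%.

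Of the kinases that bind the D cyclins, neither passed in the edgeR test. Cdk4, at chr10:127063534-127067920, was the most abundant of the 10 members per length. Its level was 596, 555 and 542 CPM in control replicates 1, 2 and 3 and 558, 587 and 522 CPM in ICF replicates 1, 2 and 3, and the groups overlapped. The log2 fold change was -0.023 ± 0.064 (SE, adjusted p = 0.863 in the edgeR test), with same-numbered differences of -0.095, 0.079 and -0.055. On the opposite strand, Cdk4 overlaps Tspan31 and shares 28.7% of its 75-base stretches with it. Tspan31 had a log2 fold change of 0.12 (adjusted p = 0.518, edgeR).

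Cdk6, at chr5:3341485-3531008, had 19.1, 19.3 and 24.4 CPM in control replicates 1, 2 and 3 and 26.5, 25.5 and 26.9 CPM in ICF replicates 1, 2 and 3. Control replicate 3 lay close to the ICF samples, and the groups did not overlap. The log2 fold change was 0.33 ± 0.12 (SE), with an adjusted p of 0.0892 in the edgeR test, 0.001 with the donor number as a block and 0.0497 with DESeq2. The same-numbered differences of 0.47, 0.40 and 0.14 on the log2 scale were smallest in replicate 3. Without control replicate 3 the log2 fold change was 0.45 and passed the edgeR test (adjusted p = 0.0149). With any other sample left out it was 0.27 to 0.36 and did not pass (adjusted p from 0.121 to 0.305, edgeR). Per length, Cdk6 made up 0.858 ± 0.156% (SD, n = 3) of Cdk4 and Cdk6 together in controls and 1.09 ± 0.0915% (SD, n = 3) under ICF, a difference whose exact two-sided permutation p was 0.2.

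The promoter of Cdk4 is shown because this gene held the highest level of the set in both groups. The RefSeq table (GRCm38.p6) holds promoters for 6 of the 10 members, which are Ccnd3, Ccne1, Cdk2, Cdk4, Cdk6 and Cdc25a. Each window ends at the base before the start site and is 250 bases long. The E-box CACGTG, the site bound by Myc family factors, is in capitals at chr10:127063285-127063533 on the forward strand, without the last base of the window, which GENCODE places in an exon.
Cdk4: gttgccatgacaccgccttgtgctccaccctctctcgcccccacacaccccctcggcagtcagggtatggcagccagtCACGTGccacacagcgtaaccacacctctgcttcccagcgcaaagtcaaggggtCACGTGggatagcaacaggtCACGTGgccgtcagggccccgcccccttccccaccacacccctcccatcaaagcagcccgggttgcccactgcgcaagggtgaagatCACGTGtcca
The word occurs 4 times here, reads the same on both strands, and occurs at least once in 6.02% of the 32851 promoter windows in the table. Among the other members it was found in the window of Cdk6. Of the Myc genes, Mycn was at 296 ± 25.6 CPM (SD, n = 3) in controls and 314 ± 13.9 (SD, n = 3) under ICF (adjusted p = 0.522, edgeR).

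The E cyclins were higher on average under ICF, and neither passed in the edgeR test with the default count filter. Ccne1 encodes cyclin E1 and spans chr7:38097984-38107534 on the reverse strand. Its level was 201, 194 and 181 CPM in control replicates 1, 2 and 3 and 219, 228 and 197 CPM in ICF replicates 1, 2 and 3. ICF replicate 3 lay among the controls, so the groups overlapped. The log2 fold change was 0.16 ± 0.078 (SE), with an adjusted p of 0.207 in the edgeR test and 0.0139 with the donor number as a block. In each same-numbered pair the ICF sample was higher, by 0.12, 0.23 and 0.12 on the log2 scale.

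Ccne2 encodes cyclin E2 and spans chr4:11191351-11204779. It had 25.5, 25.1 and 28.5 CPM in control replicates 1, 2 and 3 and 30.5, 28.9 and 42.5 CPM in ICF replicates 1, 2 and 3. ICF replicate 3 stood well above the rest, and the lowest ICF sample was just above the highest control. The log2 fold change of 0.36 ± 0.18 (SE) gave an adjusted p of 0.15 in the edgeR test, 0.0423 when genes with at least 1 count in any sample were kept and 0.000479 with the donor number as a block. Without ICF replicate 3 it was 0.18. Ccne2 shares 15.9% of its 75-base stretches with Ints8 on the opposite strand, whose log2 fold change was 0.081 (adjusted p = 0.456, edgeR). Summed per length, the E cyclins were at 79.7 ± 3.39 CPM per kb (SD, n = 3) in controls and 90.3 ± 3.92 (SD, n = 3) under ICF. The ICF sums all lay above the controls (exact two-sided permutation test, p = 0.1, the lowest possible), as did 15.6% of all genes tested, taken singly in CPM. Ccne1 made up 90.5 ± 1.05% of this sum in controls and 89.2 ± 2.88% under ICF (SD, n = 3 each), and its share overlapped between the groups (exact two-sided permutation p = 0.6).

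Cdk2, the kinase partner of cyclin E, lies at chr10:128697939-128705031 on the reverse strand. Its level was 119, 116 and 131 CPM in control replicates 1, 2 and 3 and 123, 113 and 128 CPM in ICF replicates 1, 2 and 3. The groups overlapped throughout, with a log2 fold change of -0.0085 ± 0.079 (SE, adjusted p = 0.958 in the edgeR test). In both groups replicate 3 was the highest and replicate 2 the lowest.

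Cdc25a lies at chr9:109875579-109893895. Its level was 127, 130 and 127 CPM in control replicates 1, 2 and 3 and 142, 144 and 168 CPM in ICF replicates 1, 2 and 3. The controls were almost equal, and all ICF samples were above them, ICF replicate 3 most of all. From 128 ± 1.57 CPM (SD, n = 3) in the control to 151 ± 14.4 (SD, n = 3) under ICF, the log2 fold change was 0.24 ± 0.078 (SE). Its adjusted p was 0.0823 in the edgeR test, 0.000953 with the donor number as a block and 0.0493 with DESeq2. The same-numbered differences were 0.16, 0.15 and 0.40 on the log2 scale.

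The promoter of Cdc25a is shown because, of the members with a promoter in the table that are known targets of E2F, it differed most between the groups. The words TTTCGCGC, TTTGGCGC, TTTCCCGC and TTTGCCGC, forms of the E2F site, were searched on both strands, and the match is in capitals at chr9:109875329-109875578 on the forward strand.
Cdc25a: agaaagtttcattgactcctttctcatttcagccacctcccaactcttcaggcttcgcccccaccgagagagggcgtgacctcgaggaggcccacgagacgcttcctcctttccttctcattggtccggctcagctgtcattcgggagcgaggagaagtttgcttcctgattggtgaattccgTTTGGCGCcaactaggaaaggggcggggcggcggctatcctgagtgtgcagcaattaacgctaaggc
The match spans bases -67 to -60 from the start site. Some E2F word was present in 1.86% of all promoter windows, and among the other members in that of Cdk2, at bases -140 to -133.

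Rb1, whose product the D cyclin kinases phosphorylate, lies at chr14:73183673-73325822 on the reverse strand. It had 17.7, 19.9 and 20.7 CPM in control replicates 1, 2 and 3 and 20.9, 18.6 and 27.6 CPM in ICF replicates 1, 2 and 3. ICF replicate 3 was the highest sample and ICF replicate 2 lay inside the control range. The log2 fold change of 0.20 ± 0.18 (SE) did not pass in the edgeR test (adjusted p = 0.416) or with the donor number as a block (0.0879). Without ICF replicate 3 it was 0.034.

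**Figure D3:**
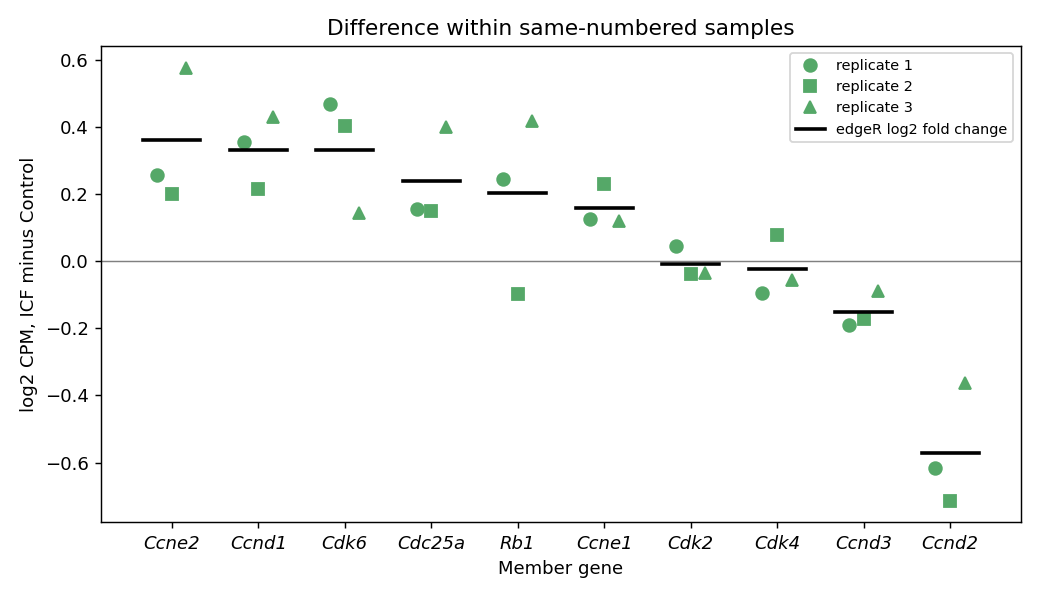
Difference in log2 CPM between the ICF and the control sample of the same replicate number (y axis) for each member (x axis), with the edgeR log2 fold change as a black line. All 3 pairs lie above 0 for Ccne2, Ccnd1, Cdk6, Cdc25a and Ccne1 and below 0 for Ccnd3 and Ccnd2, while those of Rb1, Cdk2 and Cdk4 fall on both sides.

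In CPM, 4 of the 10 members (Ccnd1, Ccne2, Cdk6 and Cdc25a) had ICF samples that all lay above the controls, and 2 (Ccnd2 and Ccnd3) had ICF samples that all lay below. Such separation was found upward in 15.6% and downward in 15.7% of all genes tested. The median log2 fold change of the members was 0.18, against 0.0026 for all genes tested. In ICF replicate 3 the spread was uneven across the set. This sample was the highest of all 6 for Ccne2, Cdc25a, Cdk6 and Rb1, and the lowest of its group for Ccne1, Cdk4 and Ccnd3.

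Per length of merged exons, the order over all samples was Cdk4, at 161 to 184 CPM per kb, then Ccne1, at 68.0 to 85.5, and Ccnd3, at 24.7 to 28.3. Ccnd1 followed at 21.2 to 28.8, Cdk2 at 18.1 to 21.1 and Cdc25a at 15.9 to 20.9. Below these came Ccne2 at 7.18 to 12.2, Ccnd2 at 5.11 to 8.38, Rb1 at 2.94 to 4.59 and Cdk6 at 1.37 to 1.93 CPM per kb. Neighbours in this order whose ranges overlapped were Ccnd3 with Ccnd1, Cdk2 with Cdc25a, and Ccne2 with Ccnd2. In the controls Ccne2 and Ccnd2 overlapped, whereas under ICF every Ccne2 value was above every Ccnd2 value. With the longest transcript as the length, Ccnd1 moved from the fourth to the sixth place, behind Cdk2 and Cdc25a, and the other places kept their order.

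The genes whose log2 CPM followed each called member most closely over the 6 samples were named by Pearson's r among the 11918 genes averaging 100 or more counts. For Ccnd1 these were Traf3ip1 (r = 0.995), 4931414P19Rik (0.992) and Fbln2 (0.991), with log2 fold changes of 0.39, 0.33 and 0.72. For Ccnd2 they were Agfg1, Bhlhe40 and Smtnl2 (each r = 0.998), which were lower under ICF, with log2 fold changes of -0.36, -1.61 and -1.08. These correlations rest on 6 samples in 2 groups and are a description.

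Genes around the members were read from 6 lists that hold 71 genes, with Ccna2 in 2 of them, and all 71 passed the filter. Of these, 2 were upregulated (Cdkn1a and E2f6) and 4 downregulated (Lef1, Axin2, Ccnb2 and Spry4) in the edgeR test, and 65 did not pass, while 7.85% of all genes were called in either direction. The median log2 fold change was -0.0034. With the donor number as a block, 13 were upregulated and 14 downregulated, where 29.9% of all genes were called.

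Of 7 CDK inhibitors, 1 rose and 6 did not pass in the edgeR test, where 3.47% of all genes were called higher. With the donor block, 3 (Cdkn1a, Cdkn1c and Cdkn2b) were called higher and none lower, against 14.6% and 15.3% of all genes. Cdkn1a encodes p21, an inhibitor of cyclin E with Cdk2. Its level was 39.6, 37.9 and 45.1 CPM in control replicates 1, 2 and 3 and 55.5, 59.6 and 87.1 CPM in ICF replicates 1, 2 and 3, so the groups did not overlap and ICF replicate 3 was the highest. The log2 fold change was 0.72 ± 0.22 (SE, adjusted p = 0.0308 in the edgeR test), and it did not pass without control replicate 1 (0.126) or control replicate 2 (0.139). Cdkn1b, which encodes p27 and was the inhibitor with the highest mean CPM, had 87.7 ± 3.16 CPM (SD, n = 3) in controls and 80.6 ± 4.28 (SD, n = 3) under ICF (adjusted p = 0.28, edgeR).

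Among 12 genes of E2F factors, their DP partners and the pocket proteins related to Rb1, E2f6, a repressive E2F, rose from 32.4 ± 0.425 CPM (SD, n = 3) to 38.5 ± 0.156 (SD, n = 3). This was a log2 fold change of 0.25 ± 0.0115 (SE, adjusted p = 0.047, edgeR), which did not pass when genes with at least 1 count in any sample were kept (0.1). It was also lost without control replicate 1 (0.183), 2 (0.187) or 3 (0.0575) and without ICF replicate 1 (0.144) or 2 (0.119). The other 11 did not pass in the edgeR test, where 3.47% of all genes were called higher. With the donor block, 5 of the 12 (E2f3, E2f6, E2f7, Tfdp1 and Rbl2) were called higher and 1 (E2f1) lower, against 14.6% and 15.3% of all genes. Tfdp1, the DP partner with the highest mean CPM, was at 177 ± 1.93 CPM (SD, n = 3) in controls and 201 ± 4.41 (SD, n = 3) under ICF (adjusted p = 0.0715 in the edgeR test, 0.0272 with DESeq2, 0.00501 with the donor block). None of 18 G1/S target genes of E2F passed in the edgeR test or with DESeq2, and 3 (higher under ICF) had an unadjusted edgeR p under 0.05, as did 25.6% of all genes tested. Their log2 fold changes ran from -0.15 to 0.24 with a median of 0.039. Mcm5, a subunit of the replicative helicase, was at 461 ± 36.8 CPM (SD, n = 3) in controls and 489 ± 30.0 (SD, n = 3) under ICF. With the donor block, 3 of the 18 (Cdc6, Rrm2 and Mybl2) were called higher and 1 (Tk1) lower, against 14.6% and 15.3% of all genes.

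None of 16 genes for CDK activation and cyclin turnover passed in the edgeR test or with DESeq2, and 4 (lower under ICF) had an unadjusted edgeR p under 0.05, against the same 25.6% of all genes. With the donor block, 1 of the 16 (Cul1) was called higher and 4 (Cdc25b, Cdc25c, Pkmyt1 and Skp1a) lower, against 14.6% and 15.3% of all genes. The most abundant in CPM, Skp1a, a subunit of the SCF ubiquitin ligase, was at 516 ± 24.1 CPM (SD, n = 3) in controls and 462 ± 17.2 (SD, n = 3) under ICF (adjusted p = 0.139 in the edgeR test, 0.0149 with the donor block). Of the 6 other cell cycle cyclins and Cdk1, Ccnb2, a mitotic cyclin, fell from 209 ± 22.3 CPM (SD, n = 3) to 149 ± 11.03 (SD, n = 3), a log2 fold change of -0.49 ± 0.11 (SE, adjusted p = 0.015, edgeR), whose call was lost without control replicate 1 (0.0782), control replicate 2 (0.0891) or ICF replicate 1 (0.0622). In the edgeR test 4.38% of all genes were called lower. Of the 6, 5 had a log2 fold change below 0, while 8437 of all 16729 genes tested lay above 0. The median of the 6 was -0.17, against 0.0026 for all genes tested. With the donor block, 3 of the 6 (Ccnb1, Ccnb2 and Cdk1) were called lower and none higher, against 15.3% and 14.6% of all genes. Ccna2, the most abundant in CPM, was at 344 ± 18.7 CPM (SD, n = 3) in controls and 326 ± 15.1 (SD, n = 3) under ICF.

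Among 13 genes tied to growth inputs to the D cyclins, 3 fell and none rose in the edgeR test. Of all genes, 4.38% were called lower and 3.47% higher there. The list mixes activators with inhibitors of such signaling, among them Spry4, Dusp6 and Axin2, so its counts give no direction of growth input. DESeq2 also called Tgfb1, a cytokine that can arrest cells in G1, higher (adjusted p = 0.0216) and Dusp6, a phosphatase that inactivates ERK, lower (adjusted p = 0.016). Over all genes, DESeq2 called 6.38% higher and 7.5% lower. Tgfb1 and Dusp6 each had an unadjusted edgeR p under 0.05, as did 25.6% of all genes, and Tgfb1 was the one such gene upward in the list. With the donor block, 1 of the 13 (Tgfb1) was called higher and 5 (Spry2, Spry4, Dusp6, Lef1 and Axin2) lower, against 14.6% and 15.3% of all genes. Lef1 encodes a transcription factor of the Wnt pathway, and its level of 82.8, 79.2 and 67.5 CPM in control replicates 1, 2 and 3 compared with 21.4, 23.0 and 31.2 CPM in the ICF replicates. Its log2 fold change was -1.60 ± 0.19 (SE, adjusted p = 0.000693, edgeR). Axin2, a target and inhibitor of the same pathway, fell from 13.0 ± 1.33 CPM (SD, n = 3) to 8.69 ± 0.471 (SD, n = 3), a log2 fold change of -0.58 (adjusted p = 0.0183, edgeR). This call was lost without control replicate 2 (0.086) or ICF replicate 1 (0.0858). Spry4, a feedback inhibitor of growth factor signaling, fell from 117 ± 7.03 to 94.9 ± 6.97 CPM (SD, n = 3 each), a log2 fold change of -0.30 (adjusted p = 0.0444, edgeR). It passed only when control replicate 3 was the sample left out, and the others gave 0.173 (control replicate 1), 0.186 (control replicate 2), 0.0829 (ICF replicate 1), 0.106 (ICF replicate 2) and 0.068 (ICF replicate 3).

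**Figure D4:**
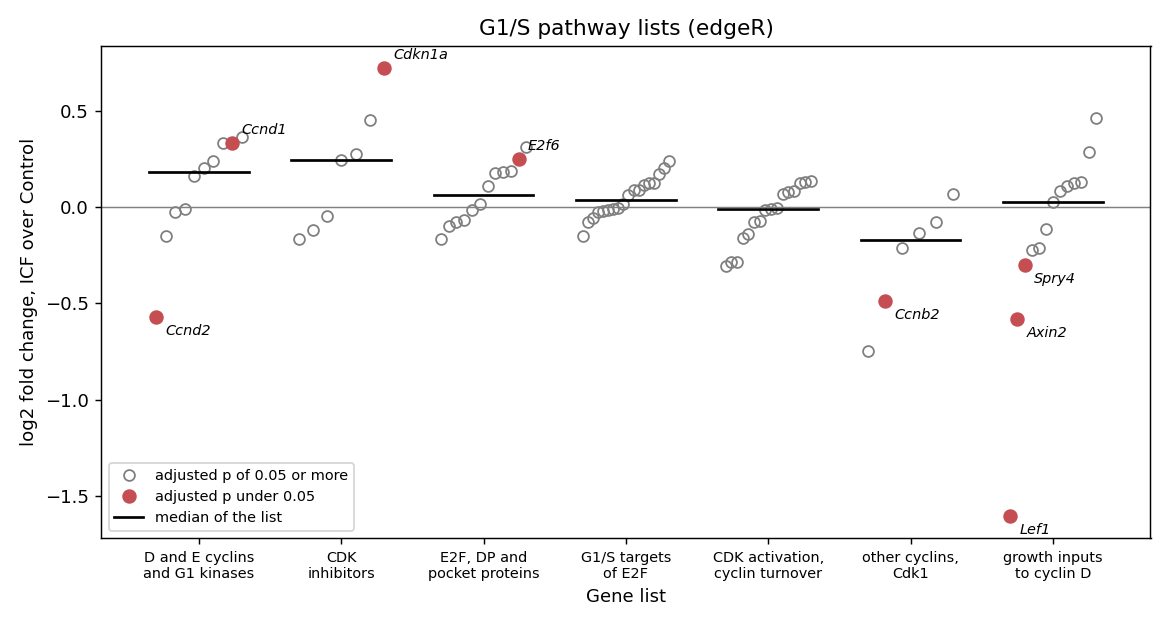
edgeR log2 fold change of ICF over control (y axis) for the 10 members and the genes of the 6 pathway lists (x axis, in rank order within a list). Filled points have an adjusted p under 0.05 and are named, and the black line is the median of each list. Ccnd1, Cdkn1a and E2f6 are called above 0, and Ccnd2, Ccnb2, Spry4, Axin2 and Lef1 below 0.

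Cell type markers were read beside these values, since in bulk RNA fewer cells of a type and less RNA per cell cannot be told apart. The summed level of 10 pluripotency markers was 3799 to 4591 CPM in controls and 3405 to 3895 under ICF, and in the edgeR test only Tdgf1 passed, with a log2 fold change of -0.81 (adjusted p = 0.00283). With the donor block, Klf4 (5.3e-05), Utf1 (0.00111) and Dppa5a (1.16e-05) were also called lower in edgeR, as were 15.3% of all genes. DESeq2 without a block called Dppa5a lower (0.0358), as it did 7.5% of all genes. Pou5f1 and Dppa5a were the most abundant of them in CPM, and Dppa5a had 669 ± 58.0 CPM (SD, n = 3) in controls and 546 ± 58.9 (SD, n = 3) under ICF. The sum of 10 mesenchymal markers was 372 to 430 CPM in controls and 447 to 461 under ICF, so the groups did not overlap. Of these 10, Col1a1 and Col3a1 rose, by 0.75 and 0.73 on the log2 scale (adjusted p = 0.0216 and 0.0482, edgeR), where 3.47% of all genes were called higher. The sum of 10 endoderm and epithelial markers was 1165 to 1203 CPM in controls and 1108 to 1151 under ICF, also without overlap. Of all genes tested, taken singly, 15.6% separated upward and 15.7% downward. Sox17 and Epcam fell, with log2 fold changes of -0.34 and -0.32 (adjusted p = 0.0445 and 0.0376, edgeR), where 4.38% of all genes were called lower. Gata6 was called higher by DESeq2 (adjusted p = 0.0336) and not in the edgeR test (0.0718). Cdh1, the most abundant of that list in CPM, was at 318 ± 20.4 CPM (SD, n = 3) in controls and 304 ± 24.2 (SD, n = 3) under ICF. The 8 neural markers summed to 122 to 132 CPM in controls and 119 to 129 under ICF, and none of the 7 tested passed in the edgeR test. At an unadjusted edgeR p under 0.05, which 25.6% of all genes reached, 3 were higher and 1 lower, and DESeq2 called 1 higher (Nes, adjusted p = 0.0482). Tubb3 and Sox1 led them, at 75.8 ± 4.28 and 24.9 ± 0.511 CPM in controls and 64.8 ± 5.11 and 25.4 ± 0.600 under ICF (SD, n = 3 each). In these last 3 lists, the donor block in edgeR also called Col1a2, Twist1, Gata6, Nes, Map2 and Dcx higher and Tubb3 lower. It called 14.6% of all genes higher and 15.3% lower. No marker of the 4 lists was at 0 in all samples. The part of these shifts in the values of the members was not tested.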

How the data were processed

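RNA sequencing covered 3 ICF and 3 control samples. The deposited files hold unnormalized read counts per gene, whole numbers that the authors obtained with HTSeq from HISAT2 alignments of Trimmomatic-filtered reads. Versions of these tools are not given in the sources used here. HTSeq summary rows that name no gene, 38.1% to 40.3% of each file's total, were left out, most of them reads without a unique alignment. The submitters' processing notes name GRCm38 and hg38, and gene names, lengths and coordinates came from GENCODE M21 (GRCm38), which held 50462 of 50686 identifiers.

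The test over all genes was edgeR's quasi-likelihood test without a block (version 4.0.16, R 4.3.3), after TMM scaling and filterByExpr by group. Calls had a Benjamini-Hochberg adjusted p under 0.05. The test was checked on simulated counts. Each standard error (SE) was computed from the sample variances of log2 CPM in both groups, and single shares were compared by exact two-sided permutation tests. P-values measure only the spread between these samples. The pairing follows the donor numbers in the labels. Deviations from the group means correlated over genes with r of 0.23, 0.26 and 0.50 for same-numbered samples. Differently numbered samples had r from -0.45 to 0.38, and control replicate 1 correlated more with ICF replicate 2 (0.38) than with ICF replicate 1, so the data single out the shared number for replicate 3 more clearly than for replicates 1 and 2.

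The members and the lists of genes were chosen with earlier results of these data known. Named genes were all members, list genes past the threshold (at most 5 a list), the gene of highest mean CPM in each pathway list, the 2 of highest mean CPM in each marker list, and the 3 closest patterns for each called member. Marker genes past the threshold were named after their values were seen, and so were marker and pathway list genes called only with the block or DESeq2. Alternatives were DESeq2 1.42.0, RLE size factors, 2 other count filters, the block with edgeR and DESeq2, each sample left out, division of the ICF replicate 3 values by 4, replicate 3 as a batch, and another gene length. Intervals of counting error were not used, and each member had a mean of at least 646 counts. Where samples lay very close, as for Ccnd2 and Ccnd3 under ICF, the SD of 3 samples may be smaller than counting error. Flow cytometry, PCR and protein data were not analysed here.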

Additional observations from a re-analysis of the deposited data

How the results depend on the processing

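Over all settings tried, Ccnd1 stayed higher (log2 fold change 0.29 to 0.37) and Ccnd2 lower (-0.66 to -0.50) under ICF, and Ccnd2 passed the threshold in each. Called members numbered 1 upward and 1 downward in the edgeR test without a block. With the replicate block they numbered 5 and 2, as with the block in DESeq2 and with replicate 3 as a batch. DESeq2 without a block gave 3 upward, and a filter of at least 1 count in any sample gave 2. With a sample left out, 0 to 2 members were called higher and 1 lower. Of pathway list genes, 2 were called higher and 4 lower. With the replicate block these were 13 and 14, with the block in DESeq2 9 and 12, and with replicate 3 as a batch 16 and 15. DESeq2 without a block gave 4 higher and the filter of at least 1 count gave 1. With a sample left out, 0 to 3 were called higher and 1 to 6 lower. Over all genes, 580 were called higher and 733 lower, against 2445 and 2561 with the replicate block, 1457 and 1662 with the block in DESeq2, 943 and 1109 with DESeq2 alone, and 2823 and 2876 with replicate 3 as a batch. With a sample left out the range was 85 to 724 higher and 215 to 928 lower. Cdk2 changed sign without control replicate 3 (0.048) or ICF replicate 2 (0.046) and ran from -0.046 to 0.048, and Cdk4 without control replicate 1 (0.017) or ICF replicate 3 (0.027) and ran from -0.059 to 0.027. The share of Ccne1 among the E cyclins, -1.34 points, was 0.31 without ICF replicate 3 and ran from -2.36 to 0.31. The share difference of Ccnd1 ran from 9.28 to 9.95 points, that of Ccnd2 from -4.83 to -4.09 and that of Cdk4 from -0.32 to -0.17 with a sample left out. RLE size factors, a filter of at least 10 counts in every sample and ICF replicate 3 divided by 4 changed no call of a member. The cause of these changes was not tested.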
